A study of Mus musculus with 6 samples.

Results

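The prostaglandin synthesis genes are 8 genes that release arachidonic acid, turn it into prostaglandins or break these down: Pla2g4a, Ptgs1, Ptgs2, Ptges, Ptges2, Ptges3, Ptgds and Hpgd. They were chosen on values of these same libraries, because Ptgs1 and Ptges were higher in Ezh2 KO, and were then listed by symbol. All 8 of the 8 symbols matched a gene ID among the 37991 in the table, and all 8 were abundant enough to be tested. Because the contrast of Ezh2 KO with Ctrl chose them, their values in it are given as a description. Their intervals, p-values and calls come from fits of the whole table, and no support is drawn from them.

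Prostaglandins are short-range lipid signals. A phospholipase frees arachidonic acid from membranes, a cyclooxygenase converts it to prostaglandin H2, and a terminal synthase makes the final product, such as prostaglandin E2 or D2, which is exported, read by receptors on the cell surface and later inactivated by oxidation. In the fetal gonad, prostaglandin D2 made by Ptgds is known for its part in male development, and prostaglandin E2 is best known from inflammation, fever and reproduction.

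RNA-seq measured transcripts of PGCLCs, mouse cells that resemble primordial germ cells and are made in vitro: embryonic stem cells first become epiblast-like cells and then germ cell-like cells. Both groups came from C57BL/6 stem cells with floxed Ezh2 alleles (Ezh2f/f) and Cre-ERT2, a Cre recombinase that 4-hydroxytamoxifen switches on, and both grew as aggregates with the factors BMP2, SCF, LIF and EGF until day 4. Ezh2 KO (genotype Ezh2-/-, CreERT2; 3 libraries) had 4-hydroxytamoxifen in ethanol in that medium, and Ctrl (genotype Ezh2f/f, CreERT2; 3 libraries) had ethanol, so loss of Ezh2 and exposure to the compound cannot be told apart. Ezh2 is the methyltransferase of polycomb repressive complex 2, and the cells were sorted by a gate that the labels do not describe. The labels do not say whether replicates were separate inductions, so the spread between libraries may be partly technical.

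Values are listed in the order of replicates 1, 2 and 3 of each group. Libraries held 27072150 to 49382146 counts. Ezh2 itself was at 91.8, 78.1 and 95.3 CPM (reads scaled to the size of each library) in the Ctrl libraries. In the Ezh2 KO libraries it was at 40.8, 67.1 and 70.0 CPM, lower in each but not absent. The log2 fold change was -0.58 (95% interval -1.10 to -0.05) and did not pass (edgeR adjusted p = 0.976). Reads were counted per gene, so the exons behind the remaining Ezh2 reads are not known, and their source was not tested. On a first principal component with 55.5% of the variance, Ctrl replicate 1 (-61.4) and Ezh2 KO replicate 2 (78.0) were at the ends. Ezh2 KO replicate 1 was at -35.5, and the other libraries lay between -1.20 and 13.3. Germ cell markers were present in all libraries: the sum of 8 of them, Prdm1, Prdm14, Tfap2c, Dppa3, Nanos3, Dnd1, Kit and Pou5f1, ran from 1028 to 1259 CPM in Ctrl and from 733 to 1134 CPM in Ezh2 KO. Most of it was Pou5f1 (145 to 470 CPM over all libraries), Tfap2c (143 to 315 CPM) and Dppa3 (135 to 255 CPM). Prdm1 was at 3.08 to 7.24 CPM and Nanos3 at 5.09 to 15.6 CPM. Of the 8 markers, 2 had a positive log2 fold change and 0 passed in edgeR after adjustment.

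The 8 genes fell into very different ranges of abundance. Per kilobase of exon, so that genes can be compared, Ptges3 was far above the rest, with a median over the 6 libraries of 501 CPM per kb (453 to 728). Ptges followed at 2.87 CPM per kb (1.44 to 5.07), Hpgd at 2.27 (0.429 to 2.76) and Ptges2 at 2.10 (1.56 to 3.55), and each overlapped its neighbour in this order. Pla2g4a stood at 0.692 CPM per kb (0.387 to 1.09), below every library's value for Ptges2. The lowest were Ptgds at 0.356 (0.165 to 0.738), Ptgs1 at 0.238 (0.0731 to 0.668) and Ptgs2 at 0.0865 (0.0225 to 0.173), each overlapping the one before it. This order is over both groups together: in Ezh2 KO alone the mean of Ptgs1, 0.482 ± 0.164 CPM per kb, was above that of Ptgds, 0.362 ± 0.231 CPM per kb (SD, n = 3 each), with overlapping libraries. Ptgs2 was the lowest member by its mean in both groups. Among all 16420 tested genes, 15.0% had a lower mean log2 CPM than Ptgs1, 4.35% than Ptgs2, 48.8% than Ptges and 99.6% than Ptges3.

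At the first step lies Pla2g4a, the cytosolic phospholipase A2 that frees arachidonic acid (ENSMUSG00000056220, chromosome 1). It was at 2.47, 4.01 and 6.97 CPM in the Ctrl libraries and at 2.67, 5.95 and 4.84 CPM in the Ezh2 KO libraries. The groups overlapped, and replicate 1 was the lowest library in both. The log2 fold change of Ezh2 KO over Ctrl was 0.00 (95% interval -1.04 to 1.05 by edgeR), an interval that leaves room for a 2-fold difference in either direction.

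Ptgs1 encodes cyclooxygenase 1, the isozyme classed as constitutive in most tissues (ENSMUSG00000047250, chromosome 2). It was at 0.412, 0.284 and 0.460 CPM in the Ctrl libraries, from 20, 8 and 13 reads, and at 1.63, 1.39 and 2.59 CPM in the Ezh2 KO libraries, from 61, 36 and 105 reads. Every Ezh2 KO library was above every Ctrl library, and the means were 0.385 ± 0.0911 and 1.87 ± 0.637 CPM (SD, n = 3 each), a ratio of 4.86. Divided by the same-numbered Ctrl library, the Ezh2 KO libraries held 3.96, 4.90 and 5.64 times as much Ptgs1. Its log2 fold change of 2.27 ± 0.41 (SE; 95% interval 1.32 to 3.21) ranked 1 of 16420 tested genes, counted from the highest. In the reference annotation the antisense gene Gm43621 overlaps Ptgs1; it was not analysed here, and with no strand setting stated its reads could not be told apart from those of Ptgs1.

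Ptgs2, which encodes the inducible cyclooxygenase 2 (ENSMUSG00000032487, chromosome 1), was scarce in all libraries. Its reads numbered 5, 8 and 17 in the Ctrl libraries and 19, 7 and 32 in the Ezh2 KO libraries, or 0.103, 0.284 and 0.601 against 0.508, 0.270 and 0.790 CPM. The groups overlapped, with Ctrl replicate 1 the lowest of the 6 libraries (log2 fold change 0.75, 95% interval -0.81 to 2.31). Per kilobase, Ptgs1 made up 82.5%, 54.1% and 47.4% of the summed cyclooxygenase transcripts in the Ctrl libraries, and 79.1%, 85.8% and 79.5% in the Ezh2 KO libraries. The sum of both genes was 0.171 ± 0.0681 CPM per kb in Ctrl and 0.596 ± 0.219 CPM per kb in Ezh2 KO (SD, n = 3 each). Thus the sum was higher in each Ezh2 KO library, while the share of Ptgs1 in Ctrl replicate 1 lay within the range of the Ezh2 KO libraries. The sum and the share both contain Ptgs1, whose rise chose the genes, and are no separate evidence.

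Ptges encodes microsomal prostaglandin E synthase 1, the inducible, glutathione-dependent enzyme that makes prostaglandin E2 (ENSMUSG00000050737, chromosome 2). It was at 8.49, 5.64 and 8.07 CPM in the Ctrl libraries and at 19.9, 14.1 and 16.0 CPM in the Ezh2 KO libraries. All 3 Ezh2 KO libraries were above all Ctrl libraries, in a range where 159 to 745 reads stood behind each value. The means were 7.40 ± 1.54 and 16.7 ± 2.99 CPM (SD, n = 3 each), a ratio of 2.25, and the ratios to the Ctrl library of the same number were 2.35, 2.49 and 1.98. The log2 fold change was 1.17 ± 0.26 (SE; 95% interval 0.57 to 1.77), rank 127 of 16420 from the highest. The overlapping pseudogene Gm13400 was listed at 0 reads in all 6 libraries.

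**Figure D1:**
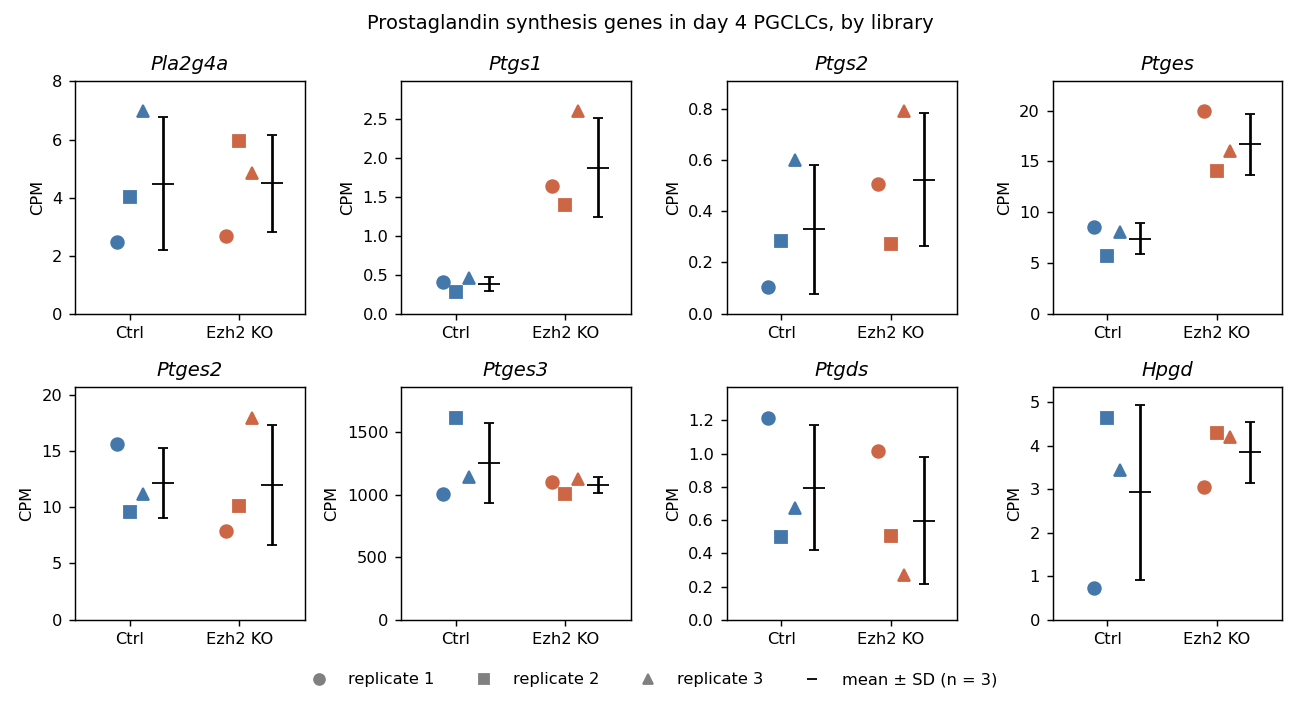
CPM of the 8 prostaglandin synthesis genes in each library (points, with symbols for the replicate number) and the mean ± SD of 3 libraries (bars), each panel on its own linear scale from 0. Ptgs1 (0.284 to 0.460 CPM in Ctrl, 1.39 to 2.59 CPM in Ezh2 KO) and Ptges (5.64 to 8.49 and 14.1 to 19.9 CPM) are the 2 panels whose groups do not overlap.

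Ptgs1 and Ptges were the members higher in each Ezh2 KO library, and the bases before their starts are shown beside those of Ptgs2, the other cyclooxygenase gene. Each line gives the 250 bases before the start annotated by RefSeq (GRCm38.p6, a later build than the authors' mm9), 5′ to 3′ on the gene's strand, with CpG dinucleotides in capitals. The window of Ptgs1 is chr2:36230176-36230425 on the plus strand, that of Ptges chr2:30903298-30903547 on the minus strand and that of Ptgs2 chr1:150099781-150100030 on the plus strand.
Ptgs1: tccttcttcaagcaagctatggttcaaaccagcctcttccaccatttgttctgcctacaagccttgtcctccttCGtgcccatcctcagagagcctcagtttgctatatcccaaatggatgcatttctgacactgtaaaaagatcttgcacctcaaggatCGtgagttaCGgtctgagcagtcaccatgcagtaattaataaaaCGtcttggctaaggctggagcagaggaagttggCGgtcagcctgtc
Ptges: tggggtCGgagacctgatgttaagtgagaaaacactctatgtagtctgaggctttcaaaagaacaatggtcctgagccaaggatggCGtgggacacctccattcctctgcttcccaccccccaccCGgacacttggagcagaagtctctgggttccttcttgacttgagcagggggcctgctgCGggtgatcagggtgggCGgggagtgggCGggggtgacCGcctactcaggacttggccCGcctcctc
Ptgs2: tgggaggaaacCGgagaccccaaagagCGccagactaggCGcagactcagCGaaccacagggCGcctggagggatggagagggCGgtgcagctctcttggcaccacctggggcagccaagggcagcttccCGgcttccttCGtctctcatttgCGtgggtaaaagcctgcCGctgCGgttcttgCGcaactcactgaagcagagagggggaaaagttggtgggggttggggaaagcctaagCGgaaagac

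Ptgs1 had 5 CpG dinucleotides in this window, Ptges 8 and Ptgs2 13, where 55.6%, 43.0% and 31.5% of all 32851 windows held at least as many. The window of Ptges3, the most abundant member, had 38, which 1.88% of windows reached. The GC box GGGCGG, searched on both strands, occurred 2 times in the window of Ptges, 1 time in that of Ptgs2 and 0 times in that of Ptgs1, and 32.7% of windows held it. The TATA box TATAAA (12.4% of windows, both strands), the E box CACGTG (6.02%) and the cyclic AMP response element TGACGTCA (1.55%) had 0 matches in all 3 windows. A match here is a description of the letters and not a binding site. Bases outside these 250 were not searched, so 0 matches does not mean that a promoter lacks the element.

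The other prostaglandin E synthases had overlapping groups. Ptges2, microsomal prostaglandin E synthase 2 (ENSMUSG00000026820, chromosome 2), was at 15.6, 9.58 and 11.2 CPM in the Ctrl libraries and at 7.89, 10.1 and 17.96 CPM in the Ezh2 KO libraries. Its lowest and its highest value both came from Ezh2 KO libraries (log2 fold change -0.02, 95% interval -0.84 to 0.80). Ptges3, the cytosolic synthase better known as p23, a co-chaperone of Hsp90 (ENSMUSG00000071072, chromosome 10), was at 1005, 1614 and 1140.0 CPM in the Ctrl libraries and at 1103, 1005 and 1120.3 CPM in the Ezh2 KO libraries. Apart from Ctrl replicate 2 these libraries lay close together (log2 fold change -0.22, 95% interval -0.65 to 0.21). A processed pseudogene, Ptges3-ps, was listed at 3.43 to 6.37 CPM, and reads can be shared between such copies, so these values carry that uncertainty.

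Between the membrane-associated synthases the balance differed by library. Per kilobase, Ptges made up 41.2%, 43.1% and 48.1% of the sum of Ptges and Ptges2 in the Ctrl libraries, and 76.5%, 64.2% and 53.4% in the Ezh2 KO libraries. The groups did not overlap in this share (44.1% ± 3.61 and 64.7% ± 11.5, SD, n = 3 each). The summed level also did not overlap, at 4.28 ± 0.961 CPM per kb in Ctrl and 6.61 ± 1.03 CPM per kb in Ezh2 KO. Both quantities contain Ptges and are no separate evidence.

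**Figure D2:**
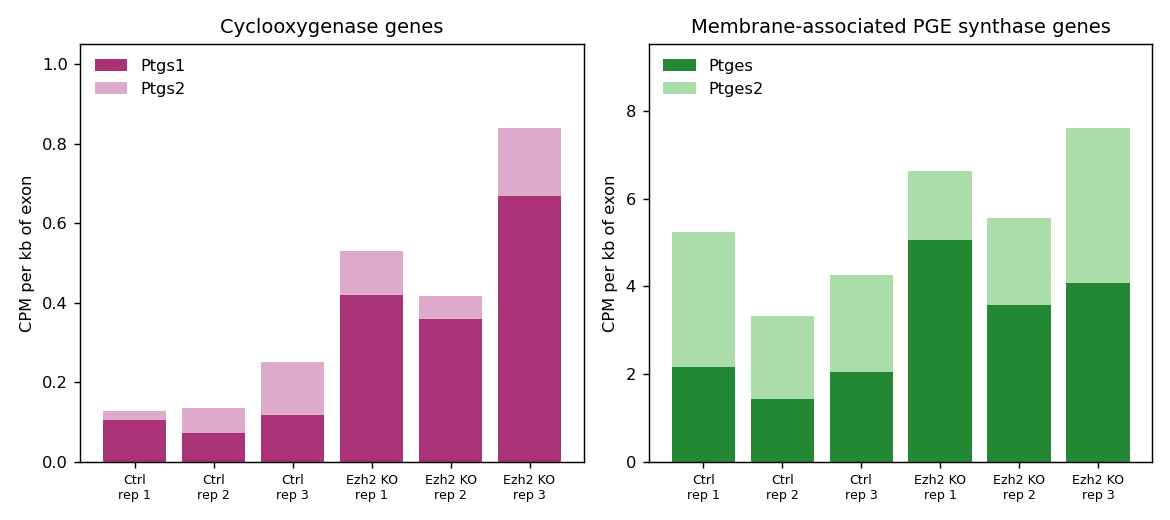
Levels per kilobase of exon in each library, stacked for the cyclooxygenase genes Ptgs1 and Ptgs2 (left) and for Ptges and Ptges2 (right), in CPM per kb from 0. The dark segments, Ptgs1 and Ptges, are taller in all 3 Ezh2 KO libraries than in any Ctrl library, while the light segments overlap between the groups.

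Ptgds and Hpgd, which lie on the prostaglandin D branch and at the point of breakdown, had overlapping groups. Ptgds, the lipocalin-type prostaglandin D synthase (ENSMUSG00000015090, chromosome 2), was at 1.22, 0.497 and 0.672 CPM in the Ctrl libraries and at 1.02, 0.502 and 0.272 CPM in the Ezh2 KO libraries, from 11 to 59 reads. Replicate 1 was the highest library in both groups (log2 fold change -0.43, 95% interval -1.75 to 0.88). Hpgd, the dehydrogenase that inactivates prostaglandins (ENSMUSG00000031613, chromosome 8), was at 0.722, 4.65 and 3.43 CPM in the Ctrl libraries and at 3.05, 4.29 and 4.20 CPM in the Ezh2 KO libraries. Ctrl replicate 1 was far below the other 5 libraries. The log2 fold change of Hpgd was 0.40 (95% interval -0.95 to 1.75) with that library and -0.07 without it.

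Of the 8 members, edgeR called 0 at an adjusted p under 0.05, where 0.00% of all 16420 tested genes were called, and 0 when the replicate number entered as a block (0.00%). DESeq2 called 1 of the 8, Ptgs1 (0.0200% of genes called), and with the replicate block it called Ptgs1 and Ptges (0.281%). The same contrast chose the members, so nothing is read from these counts. The Ezh2 KO libraries all lay above the Ctrl libraries in 2 of the 8 members, against 4.07% of tested genes, and all below in 0 of them, against 4.03%. The members' median log2 fold change was 0.20, with 5 positive and 3 negative, and that of all tested genes was 0.01, with 51.3% positive. The 2 members without overlap are Ptgs1 and Ptges, whose rise chose the set, and both are among the 5 positive. These shares were therefore raised by the choice, and nothing is read from them.

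In the rest of the pathway, 71 of 72 listed genes were found and 56 were tested, and 0 passed edgeR's quasi-likelihood test after adjustment (smallest adjusted p = 0.976; 0.466 with the replicate block). DESeq2 called 0 of them with or without the block. The median log2 fold change was -0.04, with 25 positive and 31 negative. At an unadjusted p under 0.05 there were 3, Ptger2 and Cbr3 (higher) and Mgst1 (lower), against 2.80% of all tested genes, and 3 with the replicate block as well, against 9.10%. The Ezh2 KO libraries were all above Ctrl in 4 of the 56 (Cbr3, Ptgr1, Ptger2 and Plaat3), against 4.07% of all tested genes, and all below in 3 (Slco3a1, Lpcat3 and Mgst1), against 4.03%. Plaat3, a phospholipase gene (9.21 ± 1.04 and 11.2 ± 0.299 CPM), and Slco3a1, a transporter gene (0.601 ± 0.0347 and 0.361 ± 0.176 CPM; SD, n = 3 each), are named after their values were seen.

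Of 10 genes on the receptor list, 5 were tested. Ptger2, which encodes the prostaglandin E2 receptor EP2, was at 0.103, 0.319 and 0.142 CPM in the Ctrl libraries and at 0.588, 0.541 and 0.519 CPM in the Ezh2 KO libraries, from 4 to 22 reads. All Ezh2 KO libraries were above all Ctrl libraries, but the difference did not pass (log2 fold change 1.59 ± 0.52 SE, edgeR adjusted p = 0.976, and 0.466 with the replicate block). Ptger1, which encodes the receptor EP1, had means of 0.721 ± 0.345 CPM (Ctrl) and 0.396 ± 0.190 CPM (Ezh2 KO; SD, n = 3 each), with overlapping groups. The most abundant gene of the list, Ptgfrn, a regulator that binds the prostaglandin F receptor, was at 21.8 ± 0.472 and 23.6 ± 6.73 CPM. Ptgfr, Ptgdr, Ptgdr2, Ptger3 and Ptgir were too low to test.

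Of 11 genes of other terminal synthases and reductases, 8 were tested. Cbr3, a carbonyl reductase, was at 7.09, 4.58 and 6.97 CPM in the Ctrl libraries and at 13.5, 9.50 and 9.44 CPM in the Ezh2 KO libraries. The groups did not overlap, and the difference did not pass (0.80 ± 0.28 SE on the log2 scale, edgeR adjusted p = 0.976, and 0.466 with the replicate block). Akr1b3, an aldose reductase that can act as a prostaglandin F synthase, was the most abundant, with 227 ± 32.7 CPM (Ctrl) and 245 ± 27.7 CPM (Ezh2 KO). Gstm2, a glutathione transferase, was at 107 ± 7.03 and 85.3 ± 22.5 CPM, with overlapping groups.

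Among 6 genes of inactivation and transport, all 6 tested, the reductase gene Ptgr1 was at 21.8, 19.5 and 23.7 CPM in the Ctrl libraries and at 26.4, 41.8 and 27.0 CPM in the Ezh2 KO libraries. Its groups did not overlap, with Ezh2 KO replicate 2 far above the others, and the log2 fold change of 0.55 (95% interval -0.0007 to 1.10) did not pass (edgeR adjusted p = 0.976). Ptgr2, a second such reductase gene, was at 18.0 ± 3.83 and 23.9 ± 4.93 CPM. Abcc4, an exporter of prostaglandins, was at 45.6 ± 4.30 and 46.7 ± 7.19 CPM, and its 95% interval of -0.40 to 0.47 on the log2 scale bounds a difference more closely than for most of these genes.

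The supply of arachidonic acid and the competing lipoxygenase route gave 0 calls as well. Of 21 genes found from the phospholipase A2 list, 17 were tested, with a median log2 fold change of -0.04. Pla2g1b, a secreted form, averaged 68.7 ± 24.7 CPM (Ctrl) and 49.0 ± 18.8 CPM (Ezh2 KO), and Pla2g2f 0.186 ± 0.139 and 0.418 ± 0.224 CPM. Plaa, on this list as a phospholipase-activating protein gene and not itself a phospholipase gene, averaged 174 ± 12.0 and 183 ± 6.60 CPM. Of the 10 supply genes, all tested, 7 were negative (median -0.17). Lpcat3, which returns arachidonate to membrane phospholipids, was at 91.7 ± 3.88 and 76.9 ± 7.27 CPM with groups that did not overlap, Mgll, a monoacylglycerol lipase gene, at 1.97 ± 0.821 and 2.79 ± 1.10 CPM, and Elovl5, a fatty acid elongase gene, at 110.0 ± 12.8 and 116 ± 18.2 CPM. Of 8 tested lipoxygenase and leukotriene genes, 6 were positive (median 0.24). Alox12, a lipoxygenase gene, was at 2.13 ± 0.383 and 3.27 ± 1.08 CPM, the leukotriene C4 synthase gene Ltc4s at 0.338 ± 0.140 and 0.614 ± 0.346 CPM, and Lta4h, which makes leukotriene B4, at 118 ± 7.90 and 115 ± 11.6 CPM.

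Ptges belongs to the MAPEG family of small membrane enzymes. The group of relatives held only 3 microsomal glutathione transferase genes, not the whole family, and 2 of these were tested. Ltc4s and Alox5ap, also of this family, were listed with the leukotriene genes (log2 fold changes 0.85 and 0.26, overlapping groups). Mgst1 was at 1.30, 1.88 and 2.37 CPM in the Ctrl libraries and at 0.749, 1.16 and 1.04 CPM in the Ezh2 KO libraries. Here all Ezh2 KO libraries were below all Ctrl libraries, and the difference did not pass (log2 fold change -0.91 ± 0.37 SE, edgeR adjusted p = 0.976, and 0.466 with the replicate block). Mgst3 was at 28.5 ± 1.58 and 26.6 ± 2.10 CPM (SD, n = 3 each), and Mgst2 was too low to test.

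**Figure D3:**
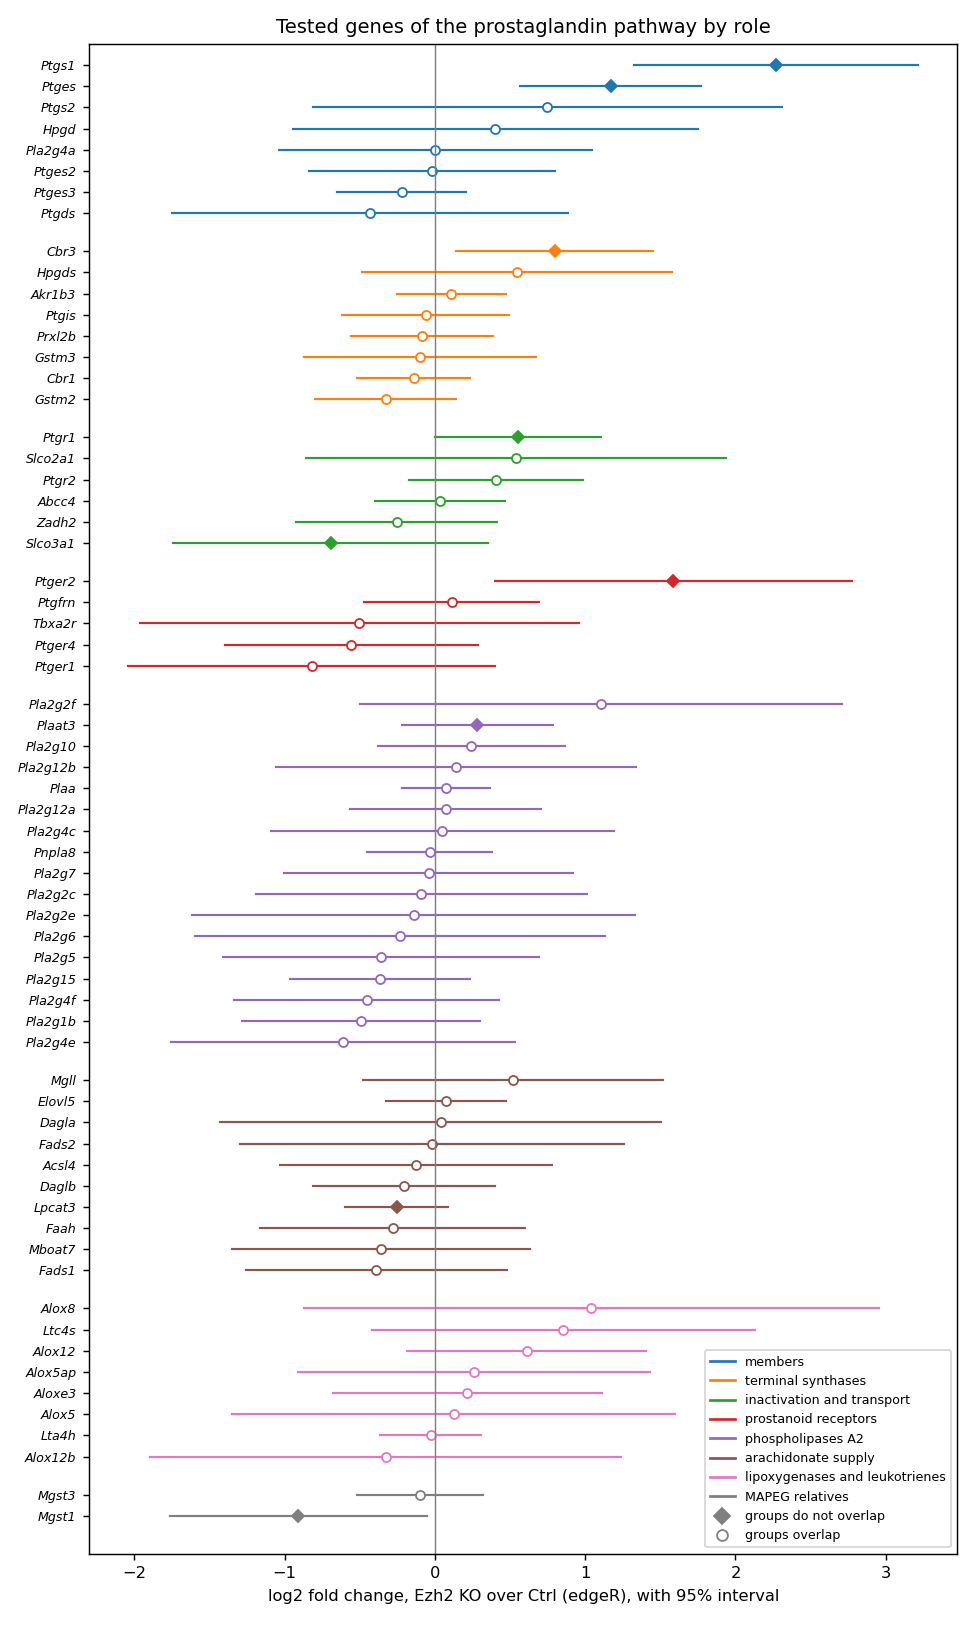
Log2 fold change of Ezh2 KO over Ctrl with its 95% interval (edgeR) for the 8 members and the 56 other tested genes of the pathway, grouped by role. Filled diamonds mark genes whose groups do not overlap and open circles the others. Ptgs1 (2.27) and Ptges (1.17) top the members, and Ptger2 (1.59) stands out among the receptors with a wide interval.

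Ptgs1 and Ptges had a Pearson correlation of 0.94 with each other in log2 CPM over the 6 libraries, which contain the contrast that chose them. Of 3489 tested genes that were abundant and variable enough (mean log2 CPM of at least 0 and SD of at least 0.5), the 5 most like Ptgs1 were Tnnt3 (0.99), Slc51a (0.98), Fermt1 (0.97), 2200002D01Rik (0.96) and Serping1 (0.96). Those most like Ptges were the pseudogene Gm12630 (1.00), Oas2 (0.99), Tppp3 (0.98), Cbr3 (0.97) and 1 gene ID without a symbol (0.97). The search ran over the same 6 libraries, so it favours genes that were higher in Ezh2 KO, and all 10 had a higher mean there. As an example, Fermt1 was at 10.4, 7.95 and 8.56 CPM in the Ctrl libraries and at 15.3, 16.2 and 22.6 CPM in the Ezh2 KO libraries. Cbr3 is the 1 gene of the pathway list among these 10. The share of pathway genes among the 3489 was not worked out, so nothing is read from the lists.

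Markers of other cell types were set beside these values. Among 7 keratinocyte and epithelium markers, Krtdap was at 1.55, 3.12 and 2.23 CPM in the Ctrl libraries and at 6.23, 9.38 and 6.47 CPM in the Ezh2 KO libraries, and Krt5, at 0.0412 to 0.148 CPM, was also higher in each Ezh2 KO library. The sum of the 7 overlapped, at 339 to 618 CPM in Ctrl and 372 to 518 CPM in Ezh2 KO. Most of it was Epcam (176 to 244 CPM over all libraries), Krt8 (59.1 to 210 CPM) and Krt18 (56.3 to 208 CPM). Krt14 was at 0.116 to 0.766 CPM and Trp63 at 0.0708 to 0.497 CPM. Blood and macrophage markers (7 genes) summed to 16.8 to 23.6 CPM in Ctrl and 13.8 to 18.2 CPM in Ezh2 KO, with Cx3cr1 at 0 reads and Ptprc and Adgre1 under 0.1 CPM in every library. Endothelial markers (5 genes) summed to 122 to 197 and 119.6 to 200.4 CPM. Nearly all of this was Pecam1, at 112 to 194 CPM over all libraries. Tek was at 2.43 to 6.15 CPM, and Cdh5, Kdr and Tie1 were at 0.0386 to 0.865 CPM. Trophoblast markers (5 genes) summed to 5.64 to 12.4 and 5.21 to 11.9 CPM. In the trophoblast list Elf5 was above Ctrl in all 3 Ezh2 KO libraries, at 0.766 to 1.42 against 0.371 to 0.710 CPM, and Cdx2 was below, at 0.270 to 0.508 against 0.639 to 0.991 CPM. Fibroblast markers (7 genes) summed to 5.59 to 8.29 CPM in Ctrl and 2.51 to 5.29 CPM in Ezh2 KO, and endoderm markers (6 genes) to 1.56 to 3.07 and 0.849 to 1.51 CPM, both lower in each Ezh2 KO library. Mesoderm markers (5 genes) summed to 0.601 to 0.990 and 0.222 to 1.16 CPM, and 4 neural markers to 24.9 to 48.5 and 21.0 to 46.9 CPM. Single markers below Ctrl in all 3 Ezh2 KO libraries were also Neurog1 and Pax6 (2 of 4 neural), Cd68 (1 of 7 blood and macrophage) and Col1a2 (1 of 7 fibroblast). Sox17 (1 of 6 endoderm) and Hand2 (1 of 5 mesoderm) were below as well, and Msgn1 (1 of 5 mesoderm) was above. Hand2 was at 0 against 0.0618 to 0.142 CPM and Msgn1 at 0.0386 to 0.107 against 0 to 0.0206 CPM. Of all tested genes, 4.07% were above and 4.03% below in this way. In edgeR 0 of the tested markers passed after adjustment, and Krt5, Hand2 and Msgn1 were among those too low to test. The part of such cells in the values of Ptgs1 and Ptges was not tested, and in these bulk samples a different share of cells and a different level per cell cannot be told apart.

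Leaving out libraries changed the members unequally. Over the 6 fits with 1 library left out, the log2 fold change of Ptgs1 ran from 1.96 to 2.46 and that of Ptges from 1.01 to 1.29. The groups of these genes do not overlap, so their direction was bound to hold. Without both libraries that stood apart it was 2.51 for Ptgs1 and 1.40 for Ptges, while Hpgd went to -0.15 and Pla2g4a to -0.53. Ptgs2 ran from 0.26 without Ctrl replicate 1 to 1.50 without Ctrl replicate 3.

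**Figure D4:**
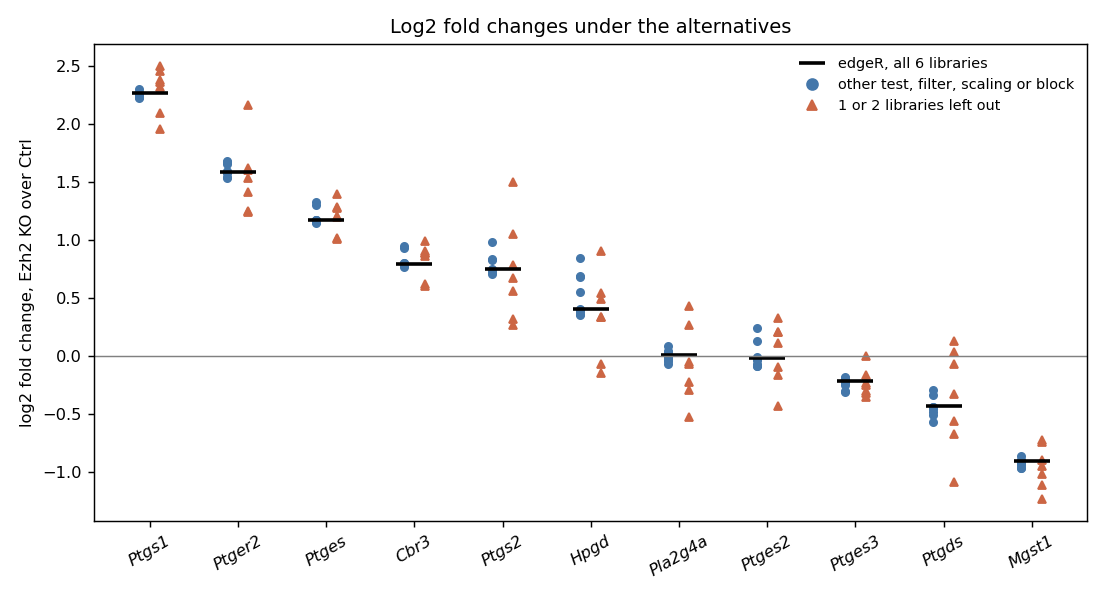
Log2 fold change of Ezh2 KO over Ctrl for the 8 members and 3 other pathway genes: in edgeR with all 6 libraries (black bars), under other tests, filters, scalings or the block (blue circles), and with 1 or 2 libraries left out (orange triangles). Ptgs1 stays between 1.96 and 2.51 and Ptges between 1.01 and 1.40, while Hpgd, Pla2g4a, Ptges2, Ptges3 and Ptgds reach both sides of 0. The groups of Ptgs1 and Ptges do not overlap, so leaving out libraries was bound to keep their direction.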

How the data were processed

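The authors deposited 1 table of raw read counts per Ensembl gene for 6 libraries. Per the submitters' processing notes, the tools were featureCounts, TopHat2 2.0.11, Trimmomatic 0.33 and CASAVA 1.8.4, and the builds mm9 and NCBIM37. For settings, strand use and annotation version: not given in the sources used here. Symbols and union exon lengths came from GENCODE M21 by gene ID, another build, so levels per kilobase are approximate; promoter windows came from RefSeq by symbol, for all 8 members.

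Genes passing filterByExpr (minimum count 10; 16420 genes) were scaled by TMM and tested with the robust quasi-likelihood F-test of edgeR 4.0.16 (R 4.3.3; group as the only term, two-sided, Benjamini-Hochberg over all genes, threshold 0.05). Fits were tested on drawn counts with known changes. CPM use TMM library sizes; log2 CPM has a prior count of 2. DESeq2 1.42.0, limma-voom (limma 3.58.1), other filters and scalings, a replicate block and left-out libraries were alternatives. Replicate numbers occur in both groups, and deviations from the group means correlated at 0.58, 0.37 and 0.19 between same-numbered libraries over 16420 genes and at -0.52 to 0.30 between different-numbered ones. Every same-numbered pair was above 0.1, so the numbers were taken to pair the libraries, although Ctrl replicate 3 correlated more with Ezh2 KO replicate 2 (0.30) than with replicate 3, and the labels do not state a pairing.

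The members and lists were chosen with earlier results of these data known. Beside the 8 members and Ezh2, the genes named from each list are those called, the 2 of smallest p and the most abundant, and the 5 most correlated with Ptgs1 and with Ptges; other names were chosen after their values were seen. The pathway gene Pla2g4b and the neural marker Sox1 are not analysed here.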

Additional observations from a re-analysis of the deposited data

How the results depend on the processing

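The quasi-likelihood test called 0 genes, 0 members and 0 other pathway genes with all libraries. It also called 0 of each in all 6 fits without 1 library, with the size factors of DESeq2 and with the replicate block. The same held without a filter, with a stricter filter (3 libraries at 1 CPM or more) and at a threshold of 0.10. A different test, limma-voom, called 0 of each as well. By the quasi-likelihood test the number at an unadjusted p under 0.05 was 459, and 1495 with the block. DESeq2 called 5 genes and 1 member, and with the replicate block 50 genes and 2 members; Ptges was not called by DESeq2 without the block (adjusted p = 0.0698) and was with it (0.00292). The direction held in every alternative run for 18 of the 28 genes followed, among them Ptgs1 (log2 fold change 1.96 to 2.51) and Ptges (1.01 to 1.40). Ptgs1 and Ptges were chosen for being higher in Ezh2 KO, and their groups do not overlap. Leaving out libraries was therefore bound to keep their direction, and nothing is read from it. Added after seeing the data were an offset for transcript GC content and a fit without Ctrl replicate 1 and Ezh2 KO replicate 2 together.

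The other 10 of the 28 genes changed sign in at least 1 alternative. With 1 library left out the ranges were -0.43 to 0.21 for Ptges2, -0.36 to 0.0026 for Ptges3, -1.09 to 0.031 for Ptgds, -0.073 to 0.91 for Hpgd, -0.29 to 0.43 for Pla2g4a, -0.075 to 0.16 for Abcc4, -0.044 to 0.33 for Ptgfrn, -0.046 to 0.20 for Elovl5 and -0.086 to 0.054 for Lta4h. Without these 2 libraries Ptges2 was at 0.33, Ptgds at 0.13, Hpgd at -0.15 and Pla2g4a at -0.53. Under the GC offset, alone and with the replicate block, Ptges2 was at 0.24 and 0.13, Pla2g4a at -0.068 and -0.046, and Plaa at -0.029 and -0.027, and Abcc4 was at -0.0083 with both. Pla2g4a was at -0.0096 with the size factors of DESeq2, -0.017 in DESeq2 and -0.033 without a filter. The cause of these turns was not tested. Ptgs2, Ptgds, Ptger1, Ptger2, Pla2g2f and Ltc4s gave no value under the stricter filter. The low read numbers of Ptgs1, Ptgs2, Ptgds and Ptger2 limit their precision.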

Other observations

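The following 4 genes of arachidonate supply and release are examples with a wide spread within the groups. Pla2g6, the calcium-independent phospholipase A2, was at 49.5, 26.6 and 17.6 CPM in the Ctrl libraries and at 47.4, 8.46 and 24.0 CPM in the Ezh2 KO libraries. Fads2, a fatty acid desaturase gene, was at 19.8, 10.96 and 7.89 CPM and at 21.8, 4.52 and 11.7 CPM in the same order. Fads1 (46.8, 31.2 and 26.3 against 39.9, 14.7 and 24.9 CPM) and Mboat7, which attaches arachidonate to phosphatidylinositol (53.7, 31.9 and 26.7 against 44.7, 13.9 and 28.8 CPM), varied likewise. In all 4 genes replicate 1 was the highest library of its group and Ezh2 KO replicate 2 the lowest of all 6. Ptges was also highest in replicate 1 of each group, but its Ezh2 KO replicate 2 was above all Ctrl libraries; Ptgs1 was highest in replicate 3 of each group. The choice of these 4 genes came after seeing their values.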
